A study of Mus musculus with 5 samples.

Results

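The 9 genes described here encode proteins with which Müller glia (MG), the radial glia of the retina, move potassium, water and bicarbonate: *Aqp4*, *Kcnj10*, *Kcnj2*, *Dag1*, *Dmd*, *Slc4a4*, *Car2*, *Car14* and *Atp1b2*. They were chosen by name, from what their products are known to do, out of 33696 genes counted. The libraries held single cells sorted by tdTomato fluorescence from retinas of adult *Glast-CreERT2*; *Rosa26-Ai65* mice aged 12 to 20 weeks, males and females pooled, on a C57BL/6J background. All groups carried both alleles and received tamoxifen and an intravitreal ShH10 AAV in which a *Gfap* promoter drove either *mKate2* with the FlpO recombinase (the control, 16 retinas pooled) or *Yap5SA* with FlpO (21 retinas pooled), and cells were taken 56 days later. *Yap5SA* encodes a form of the transcriptional coactivator YAP that the Hippo pathway cannot switch off, and tdTomato marks cells in which Cre and FlpO both acted, so only cells reached by the virus, and their progeny, were meant to be sorted.

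MG span the retina from the vitreous to the photoreceptors. In their end feet, which lie on the vitreous and on blood vessels, the inward-rectifier potassium channel Kir4.1 (*Kcnj10*) and the water channel aquaporin 4 (*Aqp4*) are anchored through dystrophin (*Dmd*) and dystroglycan (*Dag1*) to the basal lamina, and potassium released by active neurons leaves the retina by this route. Carbonic anhydrases (*Car2* in the cytosol, *Car14* on the membrane) and the sodium bicarbonate cotransporter NBCe1 (*Slc4a4*) handle the carbon dioxide of photoreceptor metabolism, and the sodium pump, with *Atp1b2* as its glial beta subunit, restores the gradients.

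Of 5 libraries, 4 were analysed. Values per library are given throughout in the order *mKate2* AAV replicate 1, *mKate2* AAV replicate 2, *Yap5SA* AAV replicate 1, *Yap5SA* AAV replicate 3, called the library order. *Yap5SA* AAV replicate 2 was left out because it shared 1361 cell barcodes with replicate 1, 99.8% of the smaller library, and because, gene by gene, its counts lay within sampling noise of those of replicate 1 (the chi-square statistic divided by its degrees of freedom was 0.396, and 121 for replicate 1 against replicate 3). The other pairs of libraries shared 0 to 7 barcodes. Of 15293 barcodes, 10749 had at least 1000 UMIs (unique molecular identifiers, each standing for 1 captured RNA molecule) and at most 15% mitochondrial UMIs. MG were the 6702 cells in which the MG genes *Glul*, *Rlbp1*, *Slc1a3* and *Clu* together made up at least 0.4% of the UMIs: 1530, 2966, 830 and 1376 cells in library order. Pooled over libraries, the other 4047 sorted cells were mainly microglia-like (1175), rod-like (910) and bipolar-like (431), but their mix differed by library. In library order, microglia-like cells numbered 32, 917, 160 and 66, rod-like cells 3, 516, 0 and 391, and bipolar-like cells 0, 367, 0 and 64. In *mKate2* AAV replicate 1 the most frequent of the other cells were 92 of a cluster without a clear name (cluster 3). That cluster held 25, 69 and 15 of the other cells in the remaining libraries.

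The libraries fell into 2 sets that crossed the AAV groups. Replicate 1 of each AAV had been counted with an entry for the tdTomato reporter and Cell Ranger 8.0.0, and *mKate2* AAV replicate 2 and *Yap5SA* AAV replicate 3 without that entry and with Cell Ranger 9.0.1. In the first set the median MG had 5994.5 and 10401 UMIs, and in the second 2920 and 2902.5. The nuclear RNA *Malat1* made up a median of 7.76 and 7.39% of MG UMIs in the first set and 0.0465 and 0.0471% in the second, and 20 dissociation-stress genes summed to 3485 and 5232 CPM (UMI counts scaled to a total of 1000000 per sum) against 30008 and 20253 CPM.

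The rule for MG let in some cells with other markers. Of the 6702 cells, 5542 (82.7%) lay in clusters, made without the 9 genes, that carried MG markers, 975 lay in clusters with no clear name and 81 (1.21%) in a cluster led by genes of the retinal pigment epithelium (*Ttr*, *Rgr*, *Rpe65*). Of the latter, 60 came from *Yap5SA* AAV replicate 3, 18 from *mKate2* AAV replicate 2 and 3 from *Yap5SA* AAV replicate 1. A further 265 lay in a cluster led by MG and rod genes alike, and 392 of the 10749 cells had a marker share between 0.3 and 0.5%, near the limit.

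Among the cell classes with at least 20 cells in a library, *Kcnj10* and *Car14* had their highest mean levels in MG. The 250 bases before the annotated start of each are printed because the levels of these genes went together across cell types (Pearson's r = 0.83 over 30 profiles). The sequences are from RefSeq on GRCm38.p6, at chr1:172340960-172341209, plus strand, and chr3:95904686-95904935, minus strand, written 5′ to 3′ along the gene. Capitals mark TTGGC or its reverse complement GCCAA, the half-site of nuclear factor I proteins.
Kcnj10: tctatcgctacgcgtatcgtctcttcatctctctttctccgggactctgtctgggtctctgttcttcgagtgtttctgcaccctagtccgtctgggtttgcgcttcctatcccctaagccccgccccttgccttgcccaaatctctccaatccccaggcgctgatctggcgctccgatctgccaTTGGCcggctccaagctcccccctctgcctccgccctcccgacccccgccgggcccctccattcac
Car14: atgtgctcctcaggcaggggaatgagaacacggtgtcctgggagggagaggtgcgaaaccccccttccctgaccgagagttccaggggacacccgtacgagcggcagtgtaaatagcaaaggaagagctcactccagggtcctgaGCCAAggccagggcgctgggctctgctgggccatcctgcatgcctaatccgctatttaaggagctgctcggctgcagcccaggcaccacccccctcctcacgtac
Each of these windows held 1 match to these letters. The table covered 6 members with 9 windows, of which 8 held at least 1 match, and 41.5% of 32851 promoter windows of the same length held at least 1. The letters ACAAT or ATTGT, the core read by SOX proteins, were in 0 of the 9 windows and in 27.7% of all windows. *Aqp4*, *Car2* and *Atp1b2* had no window in the table used.

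All 9 genes were placed on GRCm39 with the GENCODE vM39 annotation. *Aqp4* (ENSMUSG00000024411) lies on chromosome 18, 15522451 to 15544039, minus strand. *Kcnj10* (ENSMUSG00000044708) lies on chromosome 1, 172168765 to 172201652, plus strand, and *Kcnj2* (ENSMUSG00000041695) on chromosome 11, 110956981 to 110967665, plus strand. *Dag1* (ENSMUSG00000039952) lies on chromosome 9, 108081833 to 108152333, minus strand, and *Dmd* (ENSMUSG00000045103) on chromosome X, 81992474 to 84249747, plus strand. *Slc4a4* (ENSMUSG00000060961) lies on chromosome 5, 89034345 to 89387514, plus strand. *Car2* (ENSMUSG00000027562) and *Car14* (ENSMUSG00000038526) lie on chromosome 3, at 14951317 to 14967568, plus strand, and at 95805079 to 95812646, minus strand. *Atp1b2* (ENSMUSG00000041329) lies on chromosome 11, 69487651 to 69496851, minus strand. *Dmd* is by far the longest at 2257 kb, of which 98.9% lies outside the exons of all annotated transcripts, against 96.1% for *Slc4a4*, 90.1% for *Dag1* and 27.0% for *Atp1b2*.

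Across the sorted cells, *Aqp4*, *Car14*, *Kcnj10*, *Car2* and *Dag1* were higher in MG than in the other cells of the same libraries, and *Kcnj2* was at or near 0 in MG. UMI counts were summed per library and class and compared with edgeR's quasi-likelihood test, with the library as a block and p-values adjusted by Benjamini-Hochberg. Of 15376 genes tested, 2165 (14.1%) passed an adjusted p of 0.05, 6.48% higher and 7.6% lower in MG, and 5 members passed as higher. *Kcnj2*, the only member called lower, entered the fit through its counts in the other cells, so its call is not counted here. The median log2 fold change was 1.60 over the 9 members, *Kcnj2* included, and 0.03 over all genes tested. The 4 genes that define MG were left out of the counts, and none of them is a member.

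In library order, *Aqp4* stood at 834, 595, 595 and 711 CPM in MG, against 28.8, 8.80, 19.8 and 17.6 CPM in the other cells. MG and other cells did not overlap in any library, and the log2 fold change was 5.25 ± 0.48 (SE, adjusted p = 0.00974). Kir4.1 followed the same pattern at a lower count: *Kcnj10* was at 82.0, 125, 87.5 and 124 CPM in MG and at 7.86, 4.45, 16.2 and 4.66 CPM in the other cells (log2 fold change 3.86 ± 0.63, adjusted p = 0.0185). The other cells of *Yap5SA* AAV replicate 1 were the highest of the 4.

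Kir2.1, encoded by *Kcnj2*, is a second inward rectifier that has been placed on Müller cell membranes facing neurons. Its RNA was near the limit of detection in MG, with 0, 5, 3 and 0 UMIs in library order, where 3 UMIs stand for 0.158 to 0.377 CPM. The other cells held 1, 55, 15 and 17 UMIs, or 1.31, 1.94, 4.86 and 2.55 CPM, above the MG values in all 4 libraries, in *mKate2* AAV replicate 1 by 1 UMI. No fold change is given, since 2 of the 4 MG sums were 0 and the gene passed the filter on low counts only through the other cells.

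Of the dystrophin complex, dystroglycan was higher in MG and dystrophin was not. *Dag1* was at 80.3, 80.9, 98.5 and 77.2 CPM in MG and at 15.7, 42.6, 24.0 and 41.0 CPM in the other cells, which do not overlap (log2 fold change 1.48 ± 0.28, adjusted p = 0.0263). *Dmd* was at 128, 274, 208 and 216 CPM in MG, against 69.4 and 28.5 CPM in the other cells of the replicate 1 libraries and 1939 and 3447 CPM in those of *mKate2* AAV replicate 2 and *Yap5SA* AAV replicate 3. The direction thus went opposite ways in the 2 sets, and the fit over all 4 libraries gave -0.90 ± 1.40 (adjusted p = 0.728). Within the set counted with the reporter entry the log2 fold change of *Dmd* was 1.63, and within the other it was -3.16. Both passed the threshold, in fits chosen after seeing the data in which 5665 of 14930 and 7890 of 17493 genes passed. Photoreceptors carry dystrophin at their terminals, and 3 of the 910 rod-like and 1 of the 101 cone-like cells came from the first set. The part of this cell mix in the direction of *Dmd* was not tested, and the sets also differed in depth, stress genes and *Malat1*.

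Both carbonic anhydrases were higher in MG. *Car14* was at 781, 494, 560 and 875 CPM in MG and at 49.8, 6.93, 23.0 and 12.6 CPM in the other cells (log2 fold change 5.18 ± 0.67, adjusted p = 0.0129). *Car2* was at 1839, 1347, 1355 and 2172 CPM in MG and at 599, 339, 246 and 395 CPM in the other cells (2.08 ± 0.40, adjusted p = 0.0263). The groups did not overlap for either gene, and the gap was narrower for *Car2*. *Slc4a4*, at 5.44, 23.6, 10.7 and 10.0 CPM in MG and 0, 13.5, 4.86 and 15.5 CPM in the other cells, overlapped between the classes (0.75 ± 0.59, adjusted p = 0.456). *Atp1b2*, at 239, 352, 241 and 276 CPM in MG, was at 34.1 and 18.5 CPM in the other cells of the replicate 1 libraries but at 270 and 308 CPM in those of the second set, and did not pass (1.60 ± 0.69, adjusted p = 0.19).

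The number of members past the threshold rested on all 4 libraries: it was 2 without *mKate2* AAV replicate 1 (*Aqp4* and *Car14*) and 3 without any one of the others (*Aqp4*, *Car14* and *Kcnj10*). Against microglia-like cells alone, the only other named class with at least 20 cells in each library, all 8 members other than *Kcnj2* passed as higher in MG, a comparison chosen after seeing the data in which 7224 of 14410 genes passed.

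**Figure D1:**
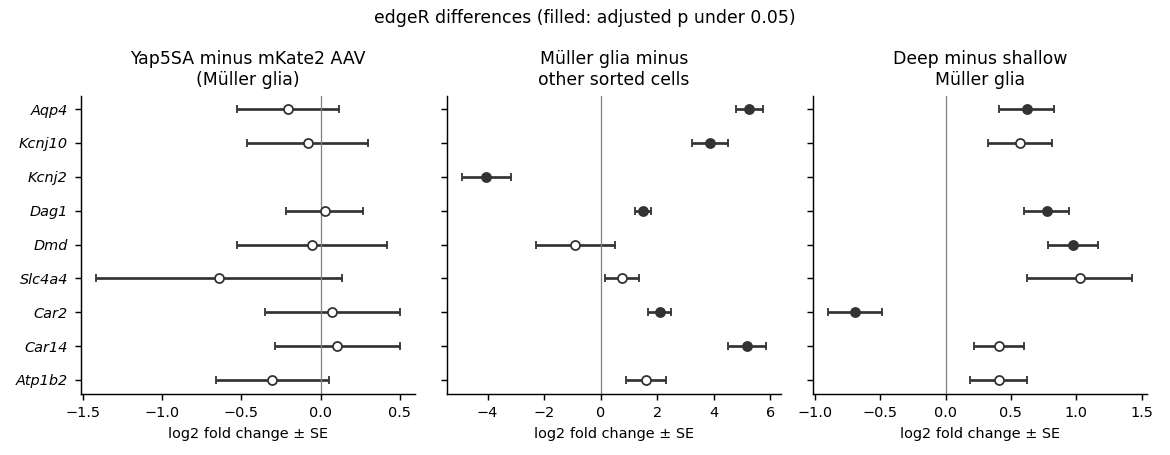
Log2 fold changes with their standard errors for the 9 genes between AAVs within MG (left), between MG and the other sorted cells (middle) and between deep and shallow MG (right), with filled points past an adjusted p of 0.05 in edgeR. No point is filled on the left, 6 are filled in the middle with *Kcnj2*, which passed the filter only through the other cells, alone on the lower side, and 4 are filled on the right with *Car2* alone on the lower side.

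Which other cells held each RNA is described from sums per class and library, for classes with at least 20 cells in a library, with no test, since most classes had 2 libraries. Among these classes, *Aqp4*, *Car14* and *Kcnj10* had their highest means in MG. For *Car14* this class includes the 81 pigment epithelium-like cells, which at 1858 CPM stood above every MG-like cluster (the highest at 1030 CPM). For *Aqp4* the named classes other than MG had means of 1.56 to 5.47 CPM, and cells of MG-like clusters that fell under the marker limit had 216 CPM, and those of unnamed cluster 14 (31 cells of 1 library) 336 CPM, against 684 ± 114 CPM in MG (SD, n = 4 libraries). For *Car14* they had 1.26 to 7.28 CPM against 678 ± 180 CPM. *Kcnj10* was at 105 ± 23.2 CPM in MG and next among the named classes in microglia-like cells at 12.1 ± 3.16 CPM (SD, n = 4), while rod-, bipolar-, cone- and amacrine-like cells had means of 0.474 to 1.29 CPM that rested on at most 14 UMIs each. The part that free RNA plays in these low values was not tested.

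*Car2* was at 1678 ± 402 CPM in MG (SD, n = 4) and at 530 ± 15.8 in rod-like, 528 ± 56.9 in bipolar-like, 412 ± 19.0 in cone-like and 274 ± 141 CPM in amacrine-like cells (SD, n = 2 each), with overlapping ranges for rod- and bipolar-like cells, and at 23.4 ± 6.79 CPM in microglia-like cells (n = 4). Cells of unnamed cluster 3 that fell under the marker limit were at 1918, 1094 and 1954 CPM in the 3 libraries with at least 20 of them. This range overlaps that of MG. Those of unnamed cluster 14 were at 1307 CPM on 70 UMIs. The best-matching markers of both clusters were those of MG, and 73.7 and 83.1% of their cells passed the rule for MG. Cytosolic carbonic anhydrase RNA was thus counted in every neuronal class and least in microglia-like cells.

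*Dmd* was low in MG and high in photoreceptor-like cells. It reached 5887 and 6713 CPM in cone-like, 4414 and 4095 CPM in rod-like and 2377 and 2491 CPM in bipolar-like cells of *mKate2* AAV replicate 2 and *Yap5SA* AAV replicate 3, against 207 ± 59.8 CPM in MG (SD, n = 4), and these 4 ranges do not overlap. The highest values, 7751 and 10305 CPM, were in an unnamed cluster (cluster 13) whose best-matching markers were those of rods. Cells of cluster 13 had a median of 0.455% ribosomal protein UMIs. Whether UMIs from introns were counted is not given in the sources used here, and their part in the level of this gene was not tested.

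*Atp1b2* was also highest in photoreceptor-like cells, at 891 and 688 CPM in cone-like and 543 and 441 CPM in rod-like cells, then 380 and 317 CPM in bipolar-like cells, whose range overlaps that of MG (239 to 352 CPM). Microglia-like cells were at 1.86 to 6.03 CPM. Among these cells the RNA of this beta subunit was thus higher in photoreceptor-like cells than in MG, and in each library it was higher in MG than in microglia-like cells.

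*Kcnj2* was highest in amacrine-like cells at 2.21 and 11.5 CPM, on 7 UMIs each, then in bipolar-like cells at 3.34 and 5.63 CPM and in microglia-like cells at 2.16 to 6.89 CPM, 3 ranges that overlap. In rod-like cells it had 0 UMIs in both libraries, which allows 0.551 and 1.40 CPM. *Slc4a4* was highest in amacrine-like cells, at 20.6 CPM (65 UMIs in 153 cells) and 129.7 CPM (79 UMIs in 48 cells), values far apart, with a UMI in 4.58 and 8.33% of these cells, and was also high in the cells of unnamed cluster 11 that were not MG (83.6 and 20.0 CPM), a cluster led by *Igfbp2*, *Igfbp7* and *Tagln*. *Dag1* was highest in that same cluster, at 134 and 164 CPM, above the 77.2 to 98.5 CPM of MG.

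**Figure D2:**
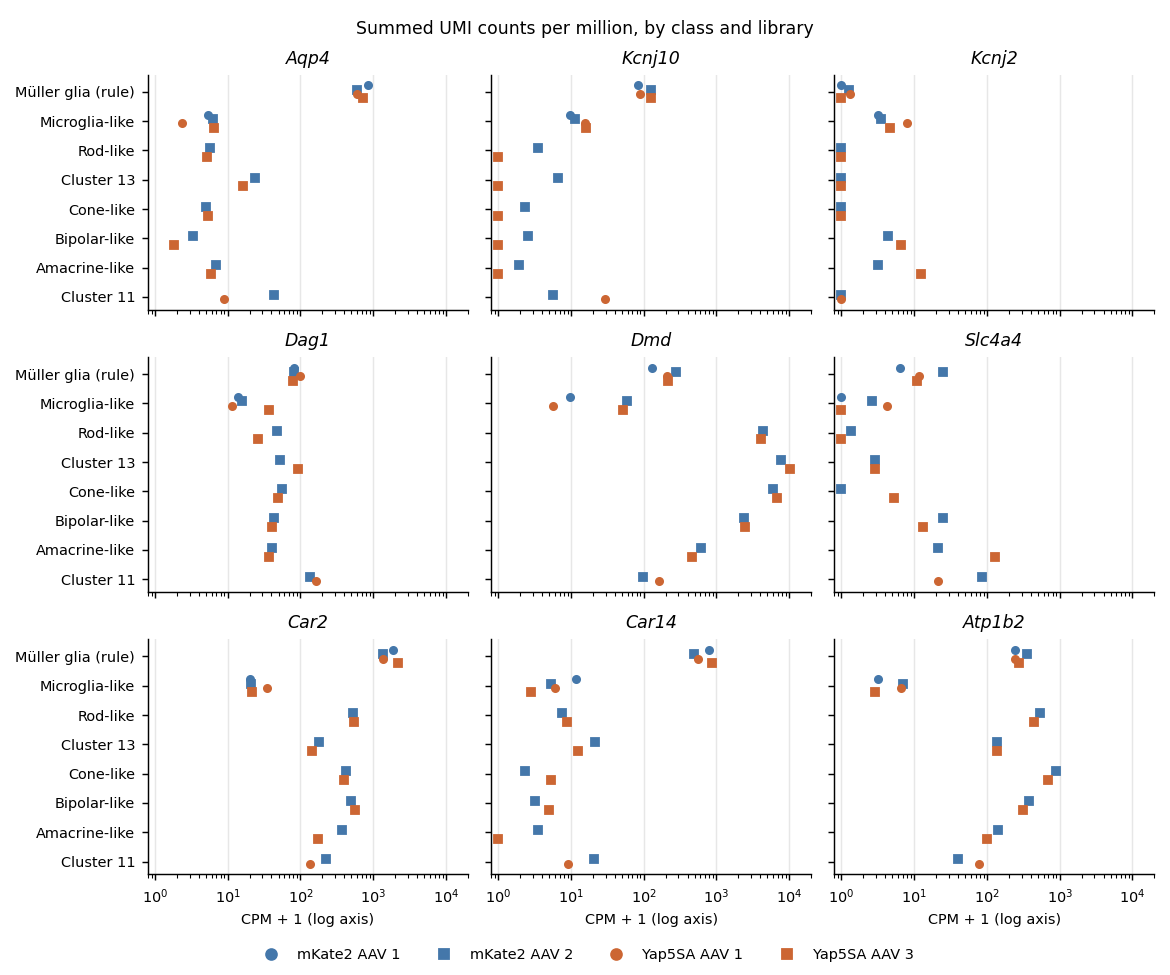
Level (CPM plus 1) on a log axis for each gene in 8 classes, 1 point per library with at least 20 cells of the class, blue for *mKate2* AAV and orange for *Yap5SA* AAV, circles for the libraries with the reporter entry and squares for those without. *Aqp4* and *Car14* are higher in MG than in any other class plotted, *Dmd* is highest in cluster 13 and in cone- and rod-like cells, and *Kcnj2* is at 0 in rod- and cone-like cells.

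Cells that the rule called MG but that lay in the pigment epithelium-like cluster had a profile of their own. Over these 81 cells *Car14* was at 1858 CPM, *Slc4a4* at 46.5 CPM and *Atp1b2* at 202 CPM, while *Aqp4* was at 3.21 CPM, *Car2* at 19.3 CPM and *Kcnj10* at 0. In *Yap5SA* AAV replicate 3 these 60 cells held 12.3% of the *Car14* UMIs and 27.5% of the *Slc4a4* UMIs counted for MG, but 0.0353% of the *Aqp4* UMIs. With MG limited to the cells in MG-like clusters, *Car14* was at 819, 514, 586 and 848 CPM and *Slc4a4* at 5.71, 24.5, 11.5 and 7.73 CPM in library order. The order of the libraries by level was as before for both genes.

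Within MG, cells with more UMIs held a different mix of the 9 genes. MG with at least 5000 UMIs (deep, 844, 776, 600 and 347 cells in library order) were set against MG with at least 1000 but under 5000 UMIs (shallow, 686, 2190, 230 and 1029 cells), summed per library, with the library as a block. *Dmd*, *Dag1* and *Aqp4* were higher in CPM in deep MG and *Car2* was lower. Of 13463 genes tested, 4668 (34.7%) passed, 19.1% higher and 15.5% lower, and 4 of the 8 members tested passed, 3 higher and 1 lower. *Kcnj2* did not pass the filter on low counts. The median log2 fold change was 0.60 over the 8 members and 0.12 over all genes tested.

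*Dmd* rose from 78.2, 113, 89.1 and 117 CPM in shallow MG to 136, 339, 215 and 263 CPM in deep MG, without overlap (log2 fold change 0.98 ± 0.19, adjusted p = 0.00439). *Dag1* rose from 43.8, 42.0, 50.4 and 50.04 to 85.9, 96.7, 102 and 89.9 CPM, also without overlap (0.77 ± 0.17, adjusted p = 0.00807). The 2 proteins are partners in 1 complex.

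*Aqp4* rose from 458, 447, 237 and 538 to 892, 655, 618 and 792 CPM, without overlap (0.62 ± 0.21, adjusted p = 0.0439). *Car2* fell from 1975, 1730, 1663 and 3125 CPM in shallow MG to 1818, 1192, 1335 and 1727 CPM in deep MG (-0.69 ± 0.21, adjusted p = 0.0275). The *Car2* groups overlap across libraries, but deep MG were lower in all 4 libraries, with the steepest step in *Yap5SA* AAV replicate 3. *Kcnj10* (0.57 ± 0.24), *Car14* (0.41 ± 0.19), *Slc4a4* (1.03 ± 0.40) and *Atp1b2* (0.41 ± 0.22) were each higher in deep MG in 4 of 4 libraries and did not pass (adjusted p = 0.0913, 0.115, 0.0708 and 0.167). *Slc4a4* was at 36.0 CPM in MG of *mKate2* AAV replicate 2 with at least 10000 UMIs, against 3.77 to 9.0 CPM in its shallower MG.

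Scaling by library totals alone, in place of TMM, moved the median of all genes from 0.12 to 0.36. Relative to that shift the members kept their places, but by count 7 of 8 then passed as higher, and *Car2*, at -0.45, no longer passed. Of the called genes 3927 were then higher and 1303 lower, against 2577 and 2091 with TMM. Of the 4 members called, only *Dag1* and *Dmd* passed without each of the 4 libraries in turn: *Car2* passed also without *Yap5SA* AAV replicate 1 but not without any one of the other 3, and *Aqp4* passed in none of the 4.

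Deep and shallow MG differed in RNA quality as well. *Malat1* made up 9.51, 4.17, 7.97 and 5.37% of the UMIs of deep MG and 4.28, 0.136, 4.18 and 0.148% of those of shallow MG, and the median mitochondrial share was lower in deep MG of every library (1.61 to 3.91% against 4.0 to 8.01%). The stress list was at 39278 and 27022 CPM in deep MG of *mKate2* AAV replicate 2 and *Yap5SA* AAV replicate 3, against 7080 and 5779 CPM in their shallow MG. The part of these differences in the values above was not tested.

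**Figure D3:**
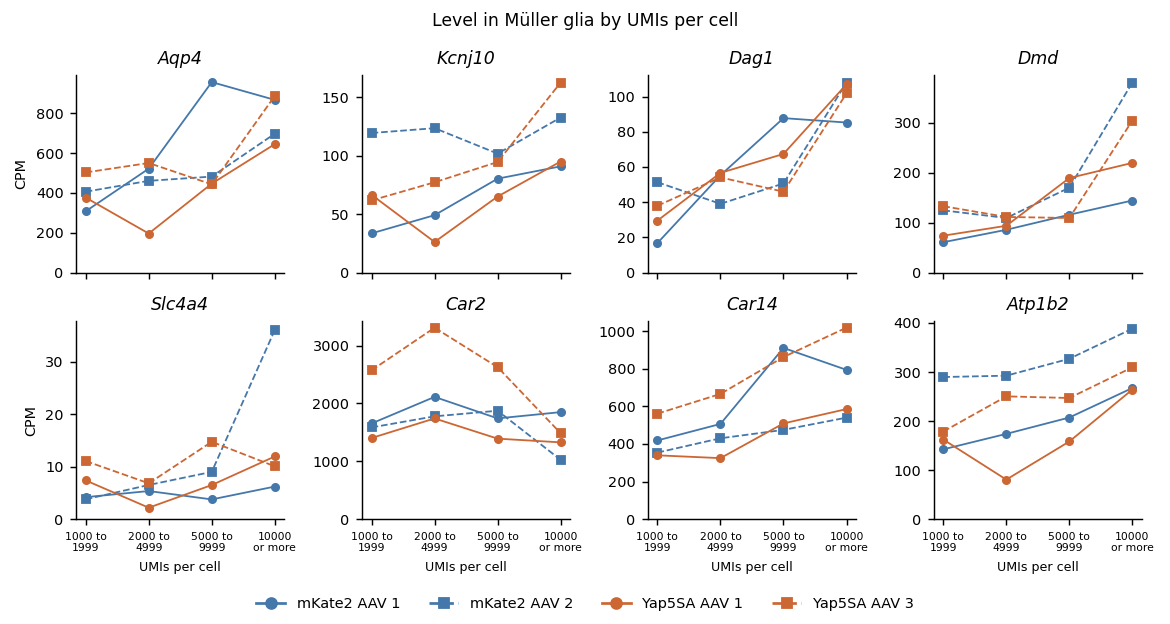
CPM of 8 genes in MG of each library (lines as in the key, dashed for libraries without the reporter entry) in 4 ranges of UMIs per cell. *Dmd* is highest in the range of at least 10000 UMIs in all 4 libraries, and *Car2* is lowest there in every library but *mKate2* AAV replicate 1.

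The study set *Yap5SA* AAV against *mKate2* AAV to ask what transient YAP activity leaves behind in MG and their progeny. None of the 9 genes differed between the AAVs in MG beyond the spread between libraries. In edgeR's quasi-likelihood test with 2 libraries against 2, 0 of 15323 genes tested passed an adjusted p of 0.05 (0%), 31 had an unadjusted p under 0.05, and DESeq2 called 0 as well, with 54 at an unadjusted p under 0.05. All 8 members tested had an adjusted p of 1.00, and their median log2 fold change was -0.07, against -0.03 over all genes.

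*Aqp4* was at 714 ± 169 CPM with *mKate2* AAV and 653 ± 82.2 CPM with *Yap5SA* AAV (SD, n = 2 libraries), a log2 fold change of -0.21 ± 0.32 (SE). *Kcnj10* was at 104 ± 30.6 and 106 ± 25.9 CPM (-0.08 ± 0.38). *Dag1* was at 80.6 ± 0.447 and 87.9 ± 15.1 CPM (0.03 ± 0.24), and *Dmd* at 201 ± 103 and 212 ± 5.99 CPM (-0.06 ± 0.47). For each of these genes the libraries of the AAVs overlapped.

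*Car2* was at 1593 ± 348 and 1764 ± 578 CPM (0.07 ± 0.43), and *Car14* at 637 ± 203 and 718 ± 223 CPM (0.11 ± 0.39). *Atp1b2* was at 295 ± 80.0 and 258 ± 24.8 CPM (-0.31 ± 0.36). *Slc4a4*, the least certain of the 8, was at 14.5 ± 12.8 and 10.4 ± 0.488 CPM (-0.64 ± 0.78).

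Within the 2 sets of libraries the direction differed, each resting on 1 library per AAV and so with no test. Between the replicate 1 libraries, log2 CPM with *Yap5SA* AAV minus *mKate2* AAV was -0.49 for *Aqp4*, -0.44 for *Car2* and -0.48 for *Car14*. Between *Yap5SA* AAV replicate 3 and *mKate2* AAV replicate 2 it was 0.26, 0.69 and 0.83. The water channel and both carbonic anhydrases thus moved together within each set and in opposite directions between the sets. *Slc4a4* (0.98 and -1.23), *Dmd* (0.69 and -0.34) and *Dag1* (0.30 and -0.07) moved the other way round. Neither pattern was particular to the members. Some genes of the list of 64 read below also fell in the first set and rose in the second, and some did the reverse. With the set as a term in the fit, no member passed, and none of the 18 alternative fits called any gene.

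**Figure D4:**
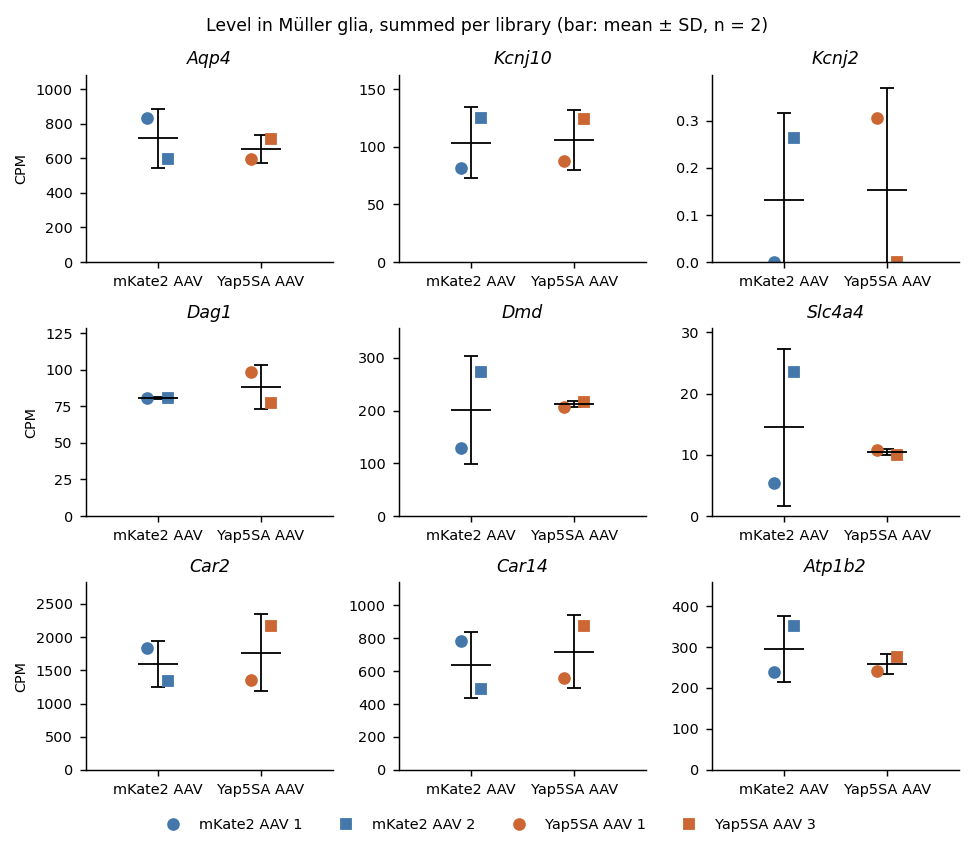
CPM of each gene in MG, 1 point per library, with the mean ± SD of the 2 libraries per AAV, circles for the libraries with the reporter entry and squares for those without. The ranges of the AAVs overlap in all 9 panels, and for *Aqp4*, *Car2* and *Car14* the circles are higher with *mKate2* AAV and the squares with *Yap5SA* AAV.

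To compare cells at 1 depth, each MG was thinned to 2000 UMIs, which left out 331, 890, 96 and 431 shallower MG in library order. *Aqp4* was then found in 69.0, 52.8, 55.4 and 60.5% of MG, *Car14* in 70.1, 49.3, 56.4 and 65.4% and *Car2* in 91.6, 84.8, 78.5 and 88.7%. In microglia-like cells, which should lack these genes, the shares were 0 to 3.57% for *Aqp4*, 0 to 3.57% for *Car14* and 2.90 to 7.14% for *Car2*. MG were far above this background for all 3 genes.

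*Kcnj10* was found in 11.5, 19.8, 14.3 and 15.7% of MG against 1.60 to 4.35% of microglia-like cells, and *Dag1* in 13.3, 8.48, 14.3 and 12.3% against 2.17 to 3.70%. *Dmd* was found in 19.6, 16.3, 23.0 and 18.9% of MG against 2.17 to 9.26% of microglia-like and 86.0 and 75.0% of rod-like cells. *Slc4a4* was found in 1.25, 2.02, 2.18 and 2.22% of MG against 0, 0.399, 0.725 and 0% of microglia-like cells, and the 95% exact binomial intervals were apart in *mKate2* AAV replicate 2 only (1.46 to 2.72% against 0.0825 to 1.16%). *Kcnj2* was found in 0 to 0.136% of MG and in 0 to 3.57% of microglia-like cells. The 3.57% is 1 of 28 cells of *mKate2* AAV replicate 1. By summed counts this gene was higher in microglia-like cells (mean 3.83 CPM) than in MG (0.142 CPM), so they are no background for it. Before thinning, microglia-like cells had medians of 3954 to 13030 UMIs and MG of 2902.5 to 10401 UMIs.

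The mean share differed between the AAVs by -4.63 percentage points for *Car2*, -2.89 for *Aqp4* and 3.04 for *Dmd*, and by -3.32 to 2.38 for the others, with exact two-sided permutation p-values of 0.333 to 1 over 9 comparisons (1 for each after Benjamini-Hochberg adjustment), where 2 against 2 libraries allow no p under 0.333. Only *Slc4a4* reached that smallest p, with 1.64 ± 0.546% of MG with *mKate2* AAV and 2.20 ± 0.0300% with *Yap5SA* AAV (SD, n = 2). These shares rest on 15, 42, 16 and 21 cells with a UMI in library order. *Yap5SA* AAV replicate 2, left out for its shared barcodes, gave 0.971% where replicate 1 gave 2.18%, so the small SD does not measure precision. Without thinning, the mean shares of MG with *Aqp4* were 66.6 ± 10.6% and 70.1 ± 9.08% in the order *mKate2* AAV and *Yap5SA* AAV, so that the direction for this gene turned with depth.

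**Figure D5:**
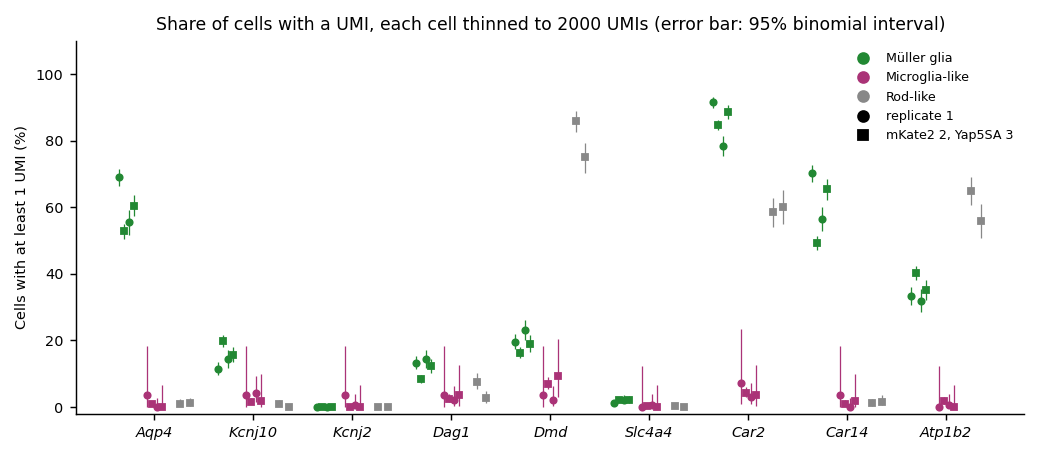
Share of cells with at least 1 UMI of each gene, with its 95% exact binomial interval for counting error, in MG, microglia-like and rod-like cells of each library, each cell thinned to 2000 UMIs. MG stand above microglia-like cells for *Aqp4*, *Car2*, *Car14* and *Atp1b2*, and rod-like cells stand above MG for *Dmd* and *Atp1b2*.

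A thinned MG held a median of 3 of the 9 genes in each library. *Aqp4* and *Car14* were found together in 52.6, 29.3, 34.3 and 40.2% of MG in library order, against 48.4, 26.0, 31.3 and 39.6% from the product of their shares, so that cells with both were slightly more frequent than the product in all 4. The same held for *Aqp4* with *Dmd* (15.5, 9.59, 14.7 and 12.7% against 13.5, 8.60, 12.8 and 11.5%) and with *Dag1* (10.5, 5.35, 10.2 and 8.15% against 9.20, 4.48, 7.93 and 7.43%). It was not particular to these pairs. It also held for *Aqp4* with *Atp1b2* (24.8, 24.2, 20.8 and 22.6% against 23.0, 21.3, 17.7 and 21.3%), *Aqp4* with *Kcnj10* and *Car14* with *Atp1b2*, among others. It did not hold in all 4 libraries for *Aqp4* with *Car2* or *Slc4a4*. These shares describe single cells of shared libraries and were not tested.

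Over 30 profiles, each the sum of 1 class in 1 library, the levels of *Aqp4*, *Car14* and *Kcnj10* went together on the scale of log2(CPM + 10) (Pearson's r of 0.97 for *Aqp4* with *Car14*, 0.83 for *Aqp4* with *Kcnj10* and 0.83 for *Kcnj10* with *Car14*). *Dmd* went with *Atp1b2* (0.79) and not with *Dag1* (0.37). *Kcnj2* ran against *Aqp4* (-0.48) and *Car14* (-0.50). The profiles share libraries and depth, and these values are descriptions.

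Among 7989 genes with a mean of at least 20 CPM, the most similar to *Aqp4* were *Mlc1* (0.97), an astroglial membrane protein of ion and water balance, and *Kdr* (0.97). *Car14* was closest to *Mlc1* (0.98) and *Aqp4* (0.97), and *Kcnj10* to *Il15* (0.92) and *Folh1* (0.92). *Car2* was closest to *Pmm1* (0.91) and *Aldoc* (0.91), a glial aldolase. *Dmd* was closest to *Pcdh15* (0.93), a photoreceptor cadherin, and *Crocc* (0.93), a protein of the ciliary rootlet. *Atp1b2* was closest to *Hspa4l* (0.92) and *Clstn1* (0.91), *Kcnj2* to *Bend6* (0.85) and *Reps2* (0.82), *Slc4a4* to *Ptprk* (0.83) and *Nrg1* (0.74), and *Dag1* to *Kirrel* (0.78) and *Sec63* (0.77).

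A list of 64 other genes of potassium, water and bicarbonate transport and of the dystrophin complex was read in the same fits. Between MG and the other cells, 23 of the 57 tested passed, 16 higher and 7 lower, where 14.1% of all genes passed, with a median log2 fold change of 0.78 against 0.03 for all genes. The largest rises in MG were those of *Fxyd1* (3.83 ± 0.86, adjusted p = 0.0402) and *Fxyd6* (3.39 ± 0.68, adjusted p = 0.0287), small regulators of the sodium pump, of the mitochondrial carbonic anhydrase gene *Car5b* (3.60 ± 0.74, adjusted p = 0.0309) and of *Sntb1* (3.48 ± 0.36, adjusted p = 0.0108), a syntrophin that binds dystrophin.

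Among the largest falls were those of *Car10* (-4.98 ± 0.63, adjusted p = 0.0129) and *Car8* (-4.45 ± 0.78, adjusted p = 0.0211), which encode carbonic anhydrase-related proteins without enzyme activity, and of the bicarbonate transporter gene *Slc4a10* (-4.21 ± 0.85, adjusted p = 0.0292). In the replicate 1 libraries *Car8* had 2 and 1 UMIs in MG and 0 and 1 in the other cells. *Slc4a10* had 5 and 3 there against 2 and 1. The falls of these 2 genes thus rest on the libraries without the reporter entry, whereas *Car10* was lower in MG of each library. Against microglia-like cells alone, *Car10* (0.70) and *Slc4a10* (0.40) turned to the other direction. *Kcnj16*, whose product pairs with Kir4.1 in other glia, had 0, 0, 0 and 1 UMI in MG of the 4 libraries.

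Between deep and shallow MG, 21 of 53 passed, 18 higher and 3 lower, where 34.7% of all genes passed, with a median of 0.42 against 0.12 for all genes. *Kcnj13* (1.99 ± 0.35, adjusted p = 0.00307), *Lama2* (1.72 ± 0.30, adjusted p = 0.00298), *Aqp9* (1.65 ± 0.49, adjusted p = 0.0257) and *Sntb1* (1.51 ± 0.23, adjusted p = 0.00191) rose most in deep MG. *Sspn* (-1.35 ± 0.24, adjusted p = 0.00329), *Kcnk2* (-1.10 ± 0.37, adjusted p = 0.0412) and *Fxyd6* (-0.91 ± 0.24, adjusted p = 0.0167) fell. *Sntb1* and *Lama2*, like *Dmd* and *Dag1*, belong to the dystrophin complex or its laminin ligands, and sarcospan (*Sspn*) is also a part of it. *Kcnj13*, which encodes Kir7.1, the channel of the pigment epithelium, had 818 UMIs in MG of *Yap5SA* AAV replicate 3, of which 97.7% were in the 60 pigment epithelium-like cells.

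Between the AAVs, 0 of 58 of these genes passed, with a median of -0.13.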

How the data were processed

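Single-cell 3′ RNA libraries (Chromium kit 3.1) were counted by the authors with Cell Ranger on GRCm39. Per the file headers, the version was 8.0.0 for 3 libraries and 9.0.1 for 2, and the deposited values are UMI counts per gene and cell, not normalized. Whether introns were counted is not given in the sources used here. No column of samples was left unused (0).

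Cells with at least 1000 UMIs and at most 15% mitochondrial UMIs were kept, and doublets were not called. MG were taken by the marker share, and clusters (2000 variable genes, 30 components, 15 neighbours, Leiden at resolution 1, without the 9 genes) were named from 12 marker lists, needing 3 detected markers, by a rule adjusted after the first clusters were seen and before the members were read in them. Counts summed per library were tested with edgeR 4.0.16 in R 4.3.3 (filterByExpr, TMM, quasi-likelihood test, Benjamini-Hochberg), with no covariate between AAVs and the library as a block otherwise. DESeq2 1.42.0 and the other alternatives are listed at the end. Each script's test was checked on simulated counts. The members and gene lists were chosen with earlier results of these data known. Named beside the members were, from the list of 64, up to 4 genes with the largest rise and 4 with the largest fall, and for each member the 2 genes with the most similar profile. *Kcnj16* was named after its values were seen. One gene that this rule selects is not reported here.

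The libraries held 13132765 to 50938304 UMIs, and MG sums 7965262 to 19017905. Intervals and limits from a count of 0 (3 UMIs) cover counting error only. Nothing in the labels says that replicates came from separate animals, so p-values measure the spread between these libraries. Promoter windows were read from RefSeq, and 6 of the 9 members matched.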

Additional observations from a re-analysis of the deposited data

How the results depend on the processing

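No paired analysis was possible by replicate number, because the AAV groups share only 1 number among the libraries used. The set of libraries, with 1 library per AAV in each, was fitted as a term instead and called 0 genes, with 149 at an unadjusted p under 0.05. Between the AAVs, 0 of the members passed in all 18 alternatives. Signs of these small differences turned: with library totals, *Kcnj10* was 0.0302 and *Dmd* 0.0757; at a mitochondrial limit of 5%, *Kcnj10* was 0.11; with the set of libraries as a term, *Dmd* was 0.0837; in cells that lay in MG-like clusters, *Dmd* was 0.16. With cells thinned to 1000 UMIs, *Dag1* was -0.19, *Dmd* 0.14, *Slc4a4* 0.95 and *Car14* -0.0008. With all 5 libraries counted singly, *Car2* was -0.0519 and *Car14* -0.0365. Leaving out 1 library gave -0.63 to 0.13 for *Atp1b2*, -0.28 to 0.41 for *Car14*, -0.34 to 0.39 for *Car2*, -0.14 to 0.17 for *Dag1*, -0.56 to 0.74 for *Dmd*, -0.43 to 0.39 for *Kcnj10* and -1.37 to 0.95 for *Slc4a4*.

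Between MG and the other cells, 3 members and 14 of the list passed with cells thinned to 1000 UMIs, and 45 of the list in the 2 libraries without the reporter entry alone, a choice made after seeing the data. Leaving out 1 library gave 2 to 3 members, 6 to 17 of the list, 874 to 1292 genes in all and -2.07 to 0.32 for *Dmd*. DESeq2 called 4034 genes, the fit thinned to 1000 UMIs 1013, and the fits within the sets with and without the reporter entry 5665 and 7890. *Dmd* was 2.78 against microglia-like cells alone and 1.63 with the reporter entry alone. Against microglia-like cells alone, *Car10* was 0.70 and *Slc4a10* 0.40.

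Between deep and shallow MG, 7 members passed with library totals, where 5230 of 13463 genes passed, and 1 with no library block. Within the libraries with the reporter entry, 7 members passed, where 3470 of 13440 genes passed. Of the list, 8 passed with no block and 13 within the libraries with the reporter entry. Within those without it, 32 of the list passed, where 7477 of 13950 genes passed. Leaving out 1 library gave 2 to 3 members, 8 to 20 of the list and 2205 to 4701 genes in all. With no block 2611 genes passed, and 2736 with cells thinned to 1000 UMIs.

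The difference in share of MG, in percentage points, turned without thinning for *Aqp4* (3.46), *Kcnj10* (1.80), *Car2* (1.21) and *Atp1b2* (1.08), at 1000 UMIs for *Kcnj2* (-0.0169), and with *Yap5SA* AAV replicate 2 in place of replicate 1 for *Kcnj2* (0) and *Slc4a4* (-0.0405). Leaving out 1 library gave -11.0 to 5.20 for *Aqp4*, -6.86 to 0.228 for *Atp1b2*, -9.24 to 11.6 for *Car14*, -9.73 to 0.476 for *Car2*, -0.0543 to 4.81 for *Dag1*, -4.81 to 3.47 for *Kcnj10* and 0 to 0.136 for *Kcnj2*. The cause of these changes was not tested.

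A comparison of 2 libraries against 2, with depth, stress genes and *Malat1* differing between the sets, limits the AAV comparison, and *Kcnj2* and *Slc4a4* are limited by their low counts.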
